A study of Arabidopsis thaliana with 24 samples.

Results

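Gene families that act on the plant cell wall were followed in salt-stressed roots of Arabidopsis thaliana, namely the expansins, the family 9 glycoside hydrolases (GH9) and the TRICHOME BIREFRINGENCE-LIKE proteins (TBL). Members were all genes whose current symbol began with EXPA, EXPB, EXLA, EXLB or GH9, or was TBL plus digits, with EXPA7 and EXPA18 left out. By this rule 53 genes were measured of 13350 named genes on the array, each by 1 probe set. They were 8 EXPA, 4 EXPB, 4 expansin-like genes (3 EXLA and 1 EXLB, called EXL here), 15 GH9 and 22 TBL genes. The gene table of the current annotation held 94 such genes. A further 4 probe sets that list several genes of these families were not counted as members.

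Root RNA was measured on 24 Affymetrix ATH1 arrays, a microarray that reads a gene through several short probes, summarised as a log2 level. Wild-type plants of ecotype Col-0 and the double mutant bzip1/bzip53, in which 2 genes for bZIP transcription factors are disrupted in the Col-0 background, were grown in hydroponic culture. Both genotypes have 4 groups of 3 arrays each, untreated roots (control) and roots kept in 150 mM NaCl for 1 h, 3 h or 6 h. The labels give an age of 6 weeks and also speak of seedling roots. Titles name biological replicates, but how plants were shared out among the arrays is not stated, and the p-values therefore measure the spread between these arrays. The salt-treated roots of both genotypes were collected at the same hour of the day, late in the light period, and no collection time is given for the controls.

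The growing plant cell wall is a network of cellulose microfibrils, hemicelluloses and pectins. Expansins loosen this network without cutting it: EXPA are the alpha-expansins and EXPB the beta-expansins, while the expansin-like proteins share the fold and have no established loosening activity. GH9 enzymes are endo-1,4-beta-glucanases, often called plant cellulases: class A is anchored in the membrane and includes KORRIGAN, which takes part in cellulose synthesis, class B is secreted, and class C is secreted with an additional carbohydrate-binding module. Several TBL proteins are known to add acetyl groups to wall polysaccharides in the Golgi, which is not established for every member of the family. TBL28, TBL30, TBL32, TBL34 and TBL35 are known as xylan acetyltransferases and TBL23, TBL25 and TBL26 as mannan acetyltransferases.

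Array medians lay between 6.53 and 6.67 over all probe sets and between 6.35 and 7.01 over the 53 members. The disrupted gene BZIP53 read at most 9.24 in the mutant arrays and at least 10.37 in the wild-type arrays, so the groups did not overlap. A probe set named as bZIP1 was not analysed here. Of 6 root marker genes only PYK10 was named, at 11.89 to 13.07 in all arrays, and none of the 5 leaf, 3 xylem and 2 phloem markers was named, so the tissue label was checked by PYK10 alone. The probe set for 25S ribosomal RNA read 11.93 to 12.71 in the control arrays and 13.03 to 13.47 in every salt array, in both genotypes. Its part in the differences between salt and control was not tested. In whole roots, fewer cells of a type and less RNA per cell cannot be told apart.

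A group mean under 5 was taken as near background, since 33% of all values lay below it, and a difference that ends there has no exact size. By that measure 18 members were near background in all 8 groups: EXPA8, EXPA16, EXPA21, EXPA24, EXPB5, GH9A3, GH9A4, GH9B5, GH9B6, GH9B11, GH9B12, GH9B16, GH9B18, TBL15, TBL20, TBL26, TBL42 and TBL43. A further 5, GH9B17, GH9C3, TBL19, TBL21 and TBL41, were near background in at least 1 group. Both GH9A genes measured, GH9A3 and GH9A4, were in the first set, so neither was clearly above background. KORRIGAN itself (GH9A1) was not among the members, so nothing is said here of its level.

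More members fell than rose under salt at every time in both genotypes, and TBL and EXPB genes made up most of the falls while EXLA genes and GH9B8 had the largest rises. A member was called at an adjusted p under 0.05, from limma with Benjamini-Hochberg adjustment over all 22746 probe sets. In wild type after 1 h, 7 of the 53 members were called higher, against 9.33% of all probe sets, and 11 lower, against 15.4%. After 3 h, 7 were called higher against 12.4% of all probe sets, and 14 lower against 23.5%. After 6 h, 4 were called higher against 16.4% of all probe sets, and 22 lower against 31.1%. The members called lower made up 20.8%, 26.4% and 41.5% of the 53 at the 3 times.

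In the mutant, after 1 h, 4 members were called higher against 10.6% of all probe sets, and 13 lower against 13.5%. After 3 h, 5 were called higher against 17.4% of all probe sets, and 23 lower against 28.1%. After 6 h, 4 were called higher against 18.1% of all probe sets, and 24 lower against 29.8%. The median log2 difference of the 53 members was -0.08, -0.14 and -0.17 in wild type at 1 h, 3 h and 6 h, against -0.04, -0.08 and -0.08 over all probe sets. In the mutant it was -0.08, -0.18 and -0.26, against -0.02, -0.08 and -0.08. The 3 salt comparisons of a genotype share its 3 control arrays, so their counts are not independent of each other.

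**Figure D1:**
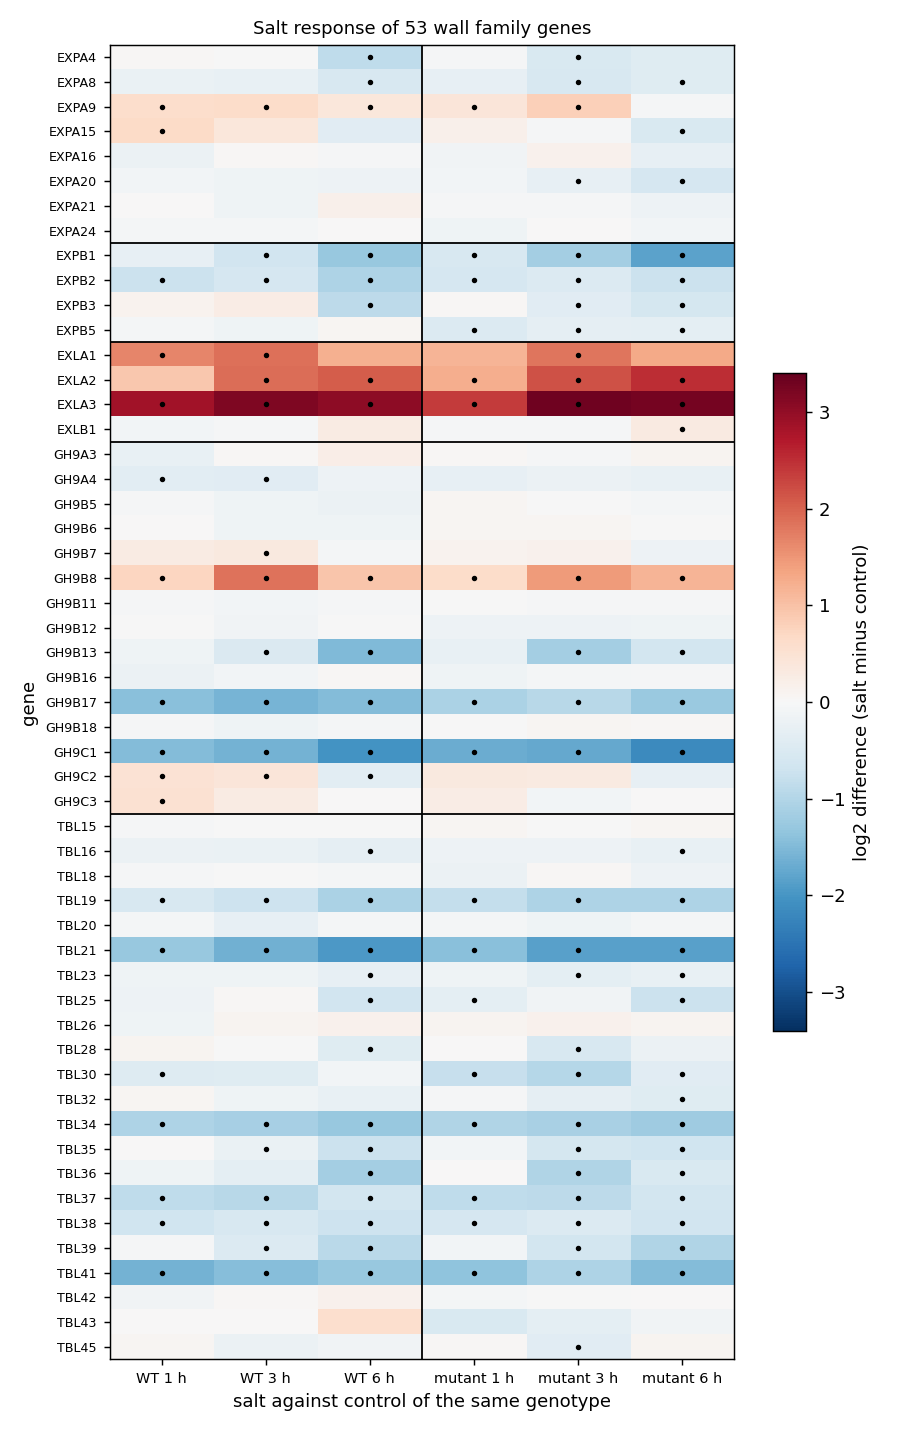
Log2 difference of salt minus control (colour, scale at right) for each of the 53 members (rows, grouped by family) at 1 h, 3 h and 6 h in wild type (left) and mutant (right). Dots mark members called at an adjusted p under 0.05. EXLA1, EXLA2, EXLA3 and GH9B8 stand out in red, and the blue rows lie mostly among the EXPB and TBL genes.

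Over the 6 salt comparisons, 9 members were called lower in every one: EXPB2, GH9B17, GH9C1, TBL19, TBL21, TBL34, TBL37, TBL38 and TBL41. EXLA3 and GH9B8 were called higher in every one. In all, 27 members were called lower at least once and never higher, 8 higher at least once and never lower, and EXPA15 and GH9C2 in both directions. The other 16 had no call in any of the 6, and 15 of these were among the genes near background in all groups, TBL18 being the exception. No member was called in opposite directions in the 2 genotypes at the same time point. These classes were not counted over all probe sets, so the counts cannot be set against the array as a whole. Same-numbered arrays of the wild-type control and 6 h groups deviated together, and with the number as a block in a fit of these groups 26 members were again called at 6 h. EXPA8 (adjusted p = 0.0525), GH9C2 (0.0608) and TBL16 (0.0714) were then not called, while EXPA15 (-0.39, adjusted p = 0.036), EXLA1 (1.21, 0.00966) and TBL43, near background (0.57, 0.033), were.

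**Figure D2:**
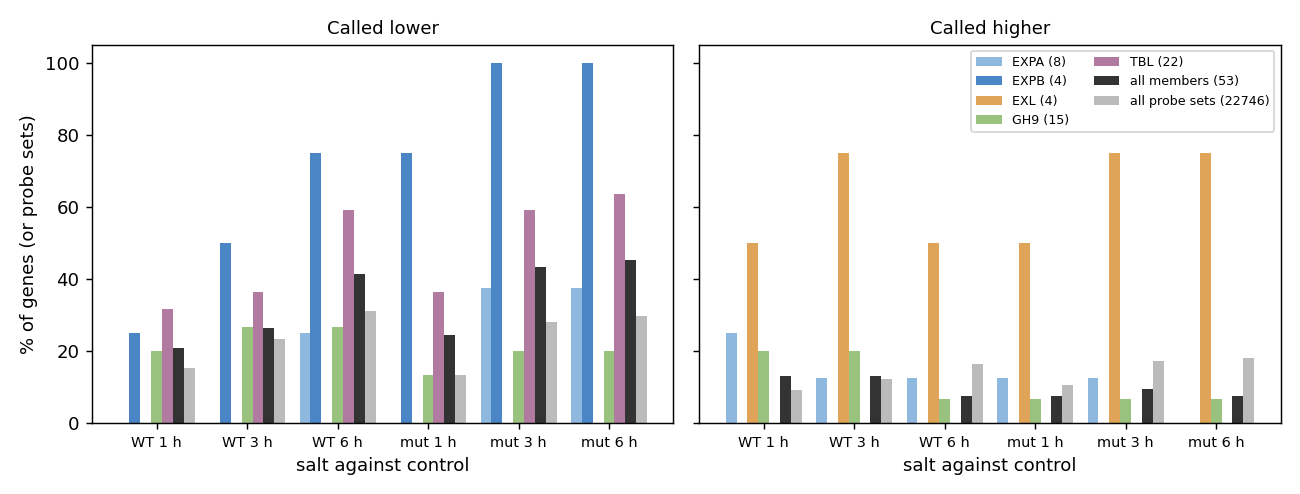
Share of each family called lower (left) and higher (right), in % of its measured genes, for salt against control at each time, with all members in black and all 22746 probe sets in grey. Of the 22 TBL genes 59.1% were called lower in wild type at 6 h and none was called higher, while the EXL bars appear only in the right plot.

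The EXLA genes rose under salt, not all of them at every time, and EXLB1 differed little. In wild type 2, 3 and 2 of the 4 EXL genes were called higher at 1 h, 3 h and 6 h, in the mutant 2, 3 and 3, and none was called lower. Over all probe sets 9.33%, 12.4% and 16.4% were called higher in wild type and 10.6%, 17.4% and 18.1% in the mutant. EXLA3 (AT3G45960) had the largest difference of any member in either genotype. Its wild-type arrays read 6.54, 6.63 and 9.997 in the control, 10.46, 9.78 and 11.48 at 1 h, 10.29, 11.64 and 10.75 at 3 h, and 10.74, 10.30 and 11.26 at 6 h. Its mutant arrays read 9.67, 7.84 and 7.13 in the control, 10.58, 9.89 and 11.33 at 1 h, 11.60, 11.82 and 11.14 at 3 h, and 11.64, 11.23 and 11.52 at 6 h. Control array 3 of wild type and control array 1 of the mutant lay far above the other controls and close to the salt arrays, and the wild-type control overlapped the 1 h group. EXLA3 was higher by 2.85, 3.17 and 3.05 (log2, SE 0.722) at 1 h, 3 h and 6 h in wild type, 7.23-fold at 1 h, with adjusted p of 0.00594, 0.00158 and 0.00151. When only the 2 groups compared were fitted, without a replicate block, the 1 h calls of EXLA3 (2.85) and EXLA1 (1.67) in wild type were lost. Same-numbered arrays of those 2 groups correlated at 0.093 to 0.579 in their deviations, and array 3 read highest in both groups for both genes. The main fit had no replicate block either, so a possible pairing was left out of both fits. Why the calls were lost was not tested. In the mutant the differences of EXLA3 were 2.39, 3.31 and 3.25, with adjusted p of 0.0202, 0.000753 and 0.000832.

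EXLA1 (AT3G45970), which lies on chromosome 3 with 1 gene between it and EXLA3 in assembly TAIR10.1, showed the same 2 high control arrays. Its wild-type arrays read 7.84, 8.06 and 10.05 in the control, 10.14, 9.74 and 11.09 at 1 h, 10.11, 11.07 and 10.43 at 3 h, and 9.74, 9.25 and 10.60 at 6 h. The mutant values were 10.18, 8.93 and 8.28 in the control, 10.21, 9.71 and 10.91 at 1 h, 11.15, 11.07 and 10.65 at 3 h, and 10.79, 9.95 and 10.49 at 6 h. Only the 3 h groups lay wholly above their controls. EXLA1 rose by 1.67 at 1 h (adjusted p = 0.0266) and 1.88 at 3 h (adjusted p = 0.00874) in wild type and by 1.83 at 3 h in the mutant (adjusted p = 0.00803, SE 0.535 throughout). Its differences of 1.21 at 6 h in wild type and of 1.14 and 1.28 at 1 h and 6 h in the mutant were not called.

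Both high control arrays were then left out together. They were chosen because EXLA1 and EXLA3 read high in them, so a larger difference follows from the choice, and the values are a description with no test. EXLA3 then differed by 3.99, 4.31 and 4.18 in wild type, 15.9-fold at 1 h, and by 3.11, 4.03 and 3.97 in the mutant. EXLA1 then differed by 2.37, 2.58 and 1.91 in wild type and by 1.67, 2.35 and 1.81 in the mutant. Leaving out other single arrays ended some calls, not always with a smaller difference. EXLA1 at 1 h in wild type was not called without control arrays 1 or 2 or without 1 h arrays 1 or 3, at 1.26 to 1.76. It also lost its 3 h call in wild type on omitting control array 1 (1.48) and in the mutant without control array 3 (1.41). EXLA3 at 1 h in the mutant was not called without control arrays 2 or 3 or without 1 h arrays 1 or 3, at 1.85 to 2.40. Mutant control array 1 also read 6.27 on the Affymetrix dap control probe set, which stayed at or below 3.18 in the other arrays, and had the lowest 25S value, 11.93. The part of these in its EXLA levels was not tested.

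EXLA2 (AT4G38400) rose more gradually. In wild type the arrays read 5.42, 5.52 and 6.25 in the control, 6.43, 5.98 and 7.52 at 1 h, 7.45, 8.18 and 7.27 at 3 h, and 7.83, 7.69 and 7.84 at 6 h. The mutant arrays read 5.28, 5.44 and 5.19, then 6.43, 5.86 and 7.30, then 7.39, 7.51 and 7.50, and at 6 h 7.86, 7.62 and 7.96. Every 3 h and 6 h array lay above every control array of its genotype, and at 1 h only the mutant groups were apart. The differences were 0.91 (adjusted p = 0.0519, not called), 1.90 and 2.06 in wild type and 1.23, 2.16 and 2.51 in the mutant (SE 0.335), a 5.70-fold rise at 6 h in the mutant. Without the 2 control arrays that were high for EXLA3, its difference at 1 h in wild type was 1.18. Without 1 h array 3 of the mutant its 1 h difference was 0.84 and not called. EXLB1, the fourth EXL gene, differed by -0.08, -0.03 and 0.29 in wild type, with no call. In the mutant its differences were -0.05, -0.05 and 0.31. The last was called (adjusted p = 0.0415), and that call was lost on omitting control arrays 1 or 3 or 6 h arrays 1 or 3, at 0.26 to 0.31, and under array centring, the replicate block and array weights.

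**Figure D3:**
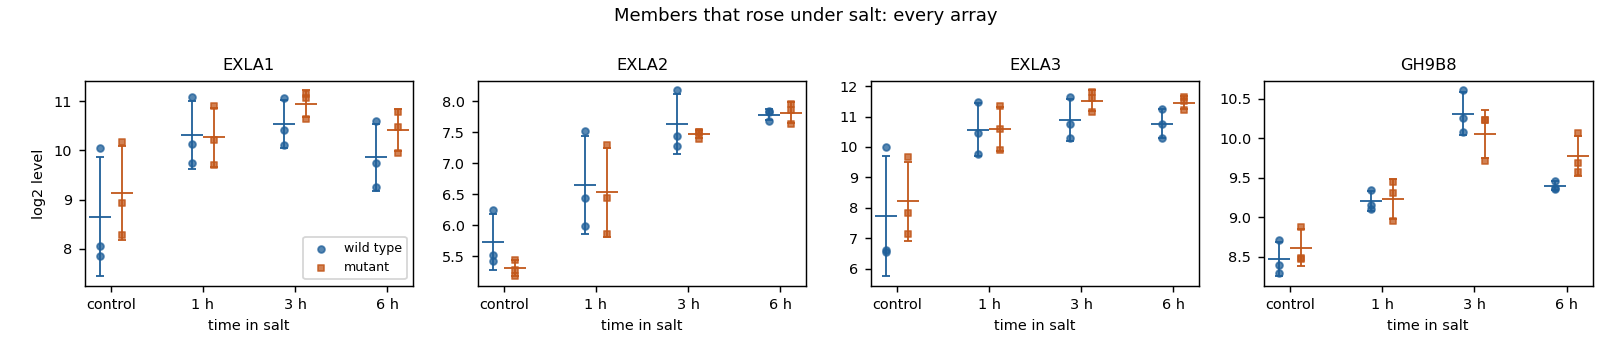
Log2 level of EXLA1, EXLA2, EXLA3 and GH9B8 in every array by time in 150 mM NaCl, with wild type as blue circles and mutant as orange squares. Horizontal marks are group means and bars are SD of 3 arrays. The control values of EXLA1 and EXLA3 spread widely, with 1 high array in each genotype. The wild-type control array 3 was high for EXLA2 too (6.25, against 5.42 and 5.52), by a smaller amount. The EXLA2 controls of the mutant and the GH9B8 controls lay closer together.

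The 8 alpha-expansin members moved in both directions, and no call among them under salt reached a log2 difference of 1. EXPA7 and EXPA18, alpha-expansins left out by the rule, were called lower at every time in both genotypes. In wild type EXPA7 differed by -1.06, -1.71 and -1.89 and EXPA18 by -1.69, -1.81 and -2.04. In the mutant the values were -0.90, -1.24 and -1.95 for EXPA7 and -1.88, -2.49 and -2.02 for EXPA18. Of the 8 EXPA genes, 2, 1 and 1 were called higher and 0, 0 and 2 lower in wild type at 1 h, 3 h and 6 h, and in the mutant 1, 1 and 0 were called higher and 0, 3 and 3 lower. Over all probe sets 9.33%, 12.4% and 16.4% were called higher and 15.4%, 23.5% and 31.1% lower in wild type. In the mutant 10.6%, 17.4% and 18.1% of all probe sets were called higher and 13.5%, 28.1% and 29.8% lower. EXPA9 rose by 0.60, 0.62 and 0.39 in wild type (SE 0.117) and by 0.41 and 0.82 at 1 h and 3 h in the mutant, while at 6 h in the mutant its difference was -0.03, with no call. Without control array 1 its 1 h difference in the mutant was 0.31 and not called. EXPA15 rose by 0.65 at 1 h in wild type (SE 0.16, adjusted p = 0.00489) and fell by 0.53 at 6 h in the mutant (adjusted p = 0.0092). Its other differences, 0.40 and -0.39 in wild type and 0.18 and -0.03 in the mutant, were not called.

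EXPA4 (AT2G39700) had the highest mean of the EXPA probe sets. In wild type its arrays read 11.39, 11.09 and 11.16 in the control, 11.18, 11.32 and 11.27 at 1 h, 11.34, 11.05 and 11.21 at 3 h, and 10.41, 10.76 and 9.92 at 6 h. In the mutant they read 11.12, 11.37 and 11.37, then 11.26, 11.39 and 11.06, then 10.76, 10.48 and 11.04, and at 6 h 10.66, 10.77 and 11.17. Wild type was low only at 6 h, while the mutant was already below all of its controls at 3 h and overlapped them at 6 h. EXPA4 fell by 0.85 at 6 h in wild type (SE 0.176, adjusted p = 0.000417) and by 0.52 at 3 h in the mutant (adjusted p = 0.019). The mutant call at 3 h was lost on omitting control arrays 2 or 3 or 3 h array 2, at -0.49 to -0.38. The mutant's -0.42 at 6 h was not called. EXPA20 fell by 0.29 and 0.58 at 3 h and 6 h in the mutant, and the 3 h call was lost on omitting control arrays 1 or 3 h array 1, at -0.26 to -0.24. EXPA8, near background, was called lower at 6 h in wild type (-0.54) and at 3 h and 6 h in the mutant (-0.55 and -0.42), the last not without 6 h array 1 (-0.30). EXPA16, EXPA21 and EXPA24 had no call under salt.

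EXPB1, EXPB2 and EXPB3 fell under salt in both genotypes, at different times, and EXPB5 was called lower in the mutant. Of the 4 EXPB genes, 1, 2 and 3 were called lower in wild type at 1 h, 3 h and 6 h and 3, 4 and 4 in the mutant, and none was called higher. Over all probe sets 15.4%, 23.5% and 31.1% were called lower in wild type and 13.5%, 28.1% and 29.8% in the mutant. EXPB1 (AT2G20750) read 7.45, 7.60 and 7.49 in the wild-type control, 7.39, 7.29 and 7.02 at 1 h, 7.02, 6.77 and 6.80 at 3 h, and 6.39, 6.55 and 5.76 at 6 h. In the mutant it read 7.38, 7.71 and 7.52, then 7.20, 6.86 and 6.90, then 6.40, 6.47 and 6.29, and 5.45, 5.78 and 5.90 at 6 h. All salt arrays lay below the controls of their genotype, and the 6 h arrays were the lowest. The differences were -0.28 (not called), -0.65 and -1.28 in wild type and -0.55, -1.15 and -1.83 in the mutant (SE 0.162), a 3.54-fold fall at 6 h in the mutant with an adjusted p of 1.53e-08. The mutant call at 1 h was lost on omitting control arrays 2 or 1 h arrays 2 or 3, at -0.51 to -0.47.

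EXPB2 (AT1G65680) fell in all 6 comparisons. Its wild-type arrays read 8.20, 7.67 and 7.87 in the control, 6.87, 7.24 and 7.42 at 1 h, 7.40, 7.45 and 7.15 at 3 h, and 6.73, 7.05 and 6.78 at 6 h. The mutant arrays read 7.48, 7.05 and 7.12 in the control, 6.71, 6.68 and 6.55 at 1 h, 6.88, 6.59 and 6.78 at 3 h, and 6.67, 6.44 and 6.39 at 6 h. No salt array reached the controls of its genotype, and the mutant control arrays lay below those of wild type, a difference that was not called. EXPB2 fell by 0.73, 0.58 and 1.06 in wild type and by 0.57, 0.47 and 0.72 in the mutant (SE 0.152). Without mutant control array 1 its mutant falls at 1 h and 3 h were -0.44 and -0.34 and not called, and without 3 h array 2 the 3 h value of -0.39 was not called.

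EXPB3 (AT4G28250), with the highest mean of the EXPB probe sets, fell late. In wild type its control arrays read 10.48, 10.09 and 10.16, its 1 h arrays 10.31, 10.37 and 10.41, its 3 h arrays 10.69, 10.32 and 10.47, and its 6 h arrays 9.46, 9.63 and 8.97. Mutant controls read 10.16, 10.34 and 10.33, the 1 h arrays 10.30, 10.46 and 10.21, the 3 h arrays 9.92, 9.62 and 10.11, and the 6 h arrays 9.53, 9.60 and 9.89. The wild-type arrays stayed within or above the control range up to 3 h, while the mutant arrays at 3 h were all below their controls. EXPB3 fell by 0.89 at 6 h in wild type (SE 0.155, adjusted p = 7.54e-05) and by 0.39 and 0.60 at 3 h and 6 h in the mutant. The mutant call at 3 h (adjusted p = 0.0448) was lost on omitting control arrays 2 or 3 or 3 h arrays 1 or 2, at -0.41 to -0.26, and with the replicate block (-0.39). EXPB5, near background throughout, was lower in the mutant by 0.46, 0.31 and 0.33, and not in wild type, and this difference between genotypes was itself not called. Its 3 h call was lost on omitting control arrays 1 or 3 or 3 h array 3 (-0.27 to -0.20) and its 6 h call without control arrays 1 or 6 h array 2 (-0.28 to -0.26).

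Among the GH9 genes, 3, 3 and 1 of 15 were called higher in wild type at 1 h, 3 h and 6 h and 3, 4 and 4 lower, and in the mutant 1 was called higher at each time and 2, 3 and 3 lower. The lower calls were 20%, 26.7% and 26.7% in wild type, against 15.4%, 23.5% and 31.1% of all probe sets. In the mutant they were 13.3%, 20% and 20%, against 13.5%, 28.1% and 29.8%. The higher calls were 20%, 20% and 6.67% in wild type, against 9.33%, 12.4% and 16.4%. In the mutant they were 6.67% each, against 10.6%, 17.4% and 18.1%. GH9B8 (AT2G32990), a class B gene, rose in all 6 comparisons with its peak at 3 h. It read 8.71, 8.40 and 8.29 in the wild-type control, 9.16, 9.11 and 9.35 at 1 h, 10.61, 10.25 and 10.07 at 3 h, and 9.37, 9.46 and 9.36 at 6 h. In the mutant it read 8.88, 8.47 and 8.49, then 9.31, 8.95 and 9.44, then 10.23, 9.71 and 10.23, and 10.06, 9.57 and 9.68 at 6 h. Each salt group lay wholly above its control. The rises were 0.74, 1.85 and 0.93 in wild type and 0.62, 1.44 and 1.16 in the mutant (SE 0.173), 3.60-fold at 3 h in wild type with an adjusted p of 8.4e-08. The mutant call at 1 h was lost on omitting control arrays 2 or 1 h array 3, at 0.52 to 0.55.

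GH9C1 (AT1G48930), a class C gene known from root hairs, fell the most of the GH9 genes. Wild-type controls read 7.51, 7.72 and 7.86, against 5.93, 6.35 and 6.38 at 1 h, 6.37, 6.01 and 5.85 at 3 h, and 5.55, 5.72 and 5.76 at 6 h. Mutant controls read 7.83, 7.90 and 7.67, against 6.58, 5.58 and 6.14 at 1 h, 6.38, 5.50 and 6.28 at 3 h, and 5.98, 5.20 and 5.70 at 6 h. Every salt array lay well below every control array of its genotype. The log2 differences of GH9C1 were -1.47, -1.62 and -2.02 in wild type and -1.70, -1.74 and -2.17 in the mutant (SE 0.241), a fall of 4.06-fold and 4.50-fold at 6 h. The 2 root hair markers measured of 5, EXPA7 and EXPA18, moved the same way: their summed log2 level was 15.31 to 16.22 in the wild-type controls and 11.54 to 12.08 at 6 h, and 15.35 to 16.22 and 11.01 to 12.47 in the mutant. Their part in the fall of GH9C1 was not tested.

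GH9B17 (AT4G39000) was above background only in the controls. The wild-type control arrays read 5.12, 5.48 and 5.57, with 4.04, 3.85 and 4.02 at 1 h, 4.0, 3.81 and 3.58 at 3 h, and 4.07, 3.86 and 3.85 at 6 h. Mutant arrays read 4.95, 5.08 and 5.15, then 4.19, 3.77 and 3.97, then 4.49, 3.75 and 4.13, and 3.65, 3.75 and 3.99. All salt arrays were near background, so the falls of 1.42, 1.59 and 1.46 in wild type and 1.08, 0.94 and 1.26 in the mutant (SE 0.161) have no exact size. Its neighbours on chromosome 4 in assembly TAIR10.1, GH9B16 and GH9B18, were near background in all groups and had no call.

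GH9B13 (AT4G02290) fell at 3 h and 6 h. Wild-type arrays read 9.86, 9.51 and 9.65 in the control, 9.45, 9.59 and 9.56 at 1 h, 9.36, 9.10 and 9.06 at 3 h, and 7.98, 8.47 and 8.02 at 6 h. Mutant arrays read 9.43, 9.72 and 9.76 in the control, 9.37, 9.47 and 9.33 at 1 h, 8.33, 8.41 and 8.70 at 3 h, and 9.33, 8.43 and 9.23 at 6 h. The lowest group was 6 h in wild type and 3 h in the mutant, and 1 of the mutant's 6 h arrays stayed as low as its 3 h arrays. GH9B13 fell by 0.50 and 1.51 at 3 h and 6 h in wild type and by 1.16 and 0.63 in the mutant (SE 0.182). At 3 h in wild type the call was lost on omitting control arrays 1 or 3 or 3 h arrays 2 or 3, at -0.51 to -0.41, and the mutant call at 6 h without 6 h array 2 (-0.35).

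GH9B7 (AT1G75680) had the highest mean of the GH9 probe sets and moved little. Wild-type arrays read 10.28, 10.39 and 10.12 in the control, 10.49, 10.62 and 10.51 at 1 h, 10.69, 10.56 and 10.56 at 3 h, and 10.25, 10.42 and 9.90 at 6 h. The mutant arrays read 10.25, 10.46 and 10.42, then 10.58, 10.44 and 10.44, then 10.53, 10.42 and 10.60, and 10.25, 10.14 and 10.21. Only the wild-type arrays at 1 h and 3 h lay wholly above their control. GH9B7 rose by 0.34 at 3 h in wild type (SE 0.105, adjusted p = 0.0152), a call lost on omitting control arrays 3 or 3 h array 1, at 0.27 to 0.30. GH9C2, of class C, rose by 0.48 and 0.40 at 1 h and 3 h in wild type and fell by 0.36 at 6 h (SE 0.125). The 3 h call was lost on omitting control arrays 1 or 3 h array 1 (0.33 to 0.34) and the 6 h call without control arrays 2 or 3 or 6 h array 3 (-0.33 to -0.25). In the mutant GH9C2 differed by 0.33, 0.30 and -0.27, with no call. GH9C3 rose by 0.51 at 1 h in wild type. GH9A4, near background, was called lower in wild type by 0.36 and 0.38 at 1 h and 3 h. The former was lost on omitting control arrays 3 or 1 h arrays 1 or 3 (-0.34 to -0.31) and the latter without 3 h array 3 (-0.30). GH9A3, GH9B5, GH9B6, GH9B11, GH9B12, GH9B16 and GH9B18 had no call under salt.

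The TBL genes fell or were not called. Of 22, 7, 8 and 13 were called lower in wild type at 1 h, 3 h and 6 h and 8, 13 and 14 in the mutant, with none called higher, and their median log2 difference was -0.36 at 6 h in wild type and -0.40 in the mutant. The lower calls were 31.8%, 36.4% and 59.1% in wild type, against 15.4%, 23.5% and 31.1% of all probe sets. In the mutant they were 36.4%, 59.1% and 63.6%, against 13.5%, 28.1% and 29.8%. The 6 genes called lower in all 6 comparisons were TBL19, TBL21, TBL34, TBL37, TBL38 and TBL41. Of the xylan and mannan genes named above, TBL34 was the one called at every time in both genotypes.

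TBL21 (AT5G15890) had the largest fall of the family. Its wild-type arrays read 6.29, 6.85 and 6.76 in the control, 5.34, 5.48 and 5.18 at 1 h, 5.04, 5.07 and 4.91 at 3 h, and 4.37, 4.89 and 4.80 at 6 h. The mutant arrays read 6.34, 6.76 and 6.58, then 5.31, 4.94 and 5.15, then 4.95, 4.63 and 4.54, and 4.63, 4.58 and 4.91 at 6 h. No salt array overlapped a control. TBL21 fell by 1.3, 1.63 and 1.95 in wild type and by 1.43, 1.85 and 1.85 in the mutant (SE 0.161), with an adjusted p of 6.98e-09 at 6 h in wild type, and its later groups reached background. TBL19 (AT5G15900), the next gene on chromosome 5 in assembly TAIR10.1, read 5.02, 5.12 and 4.86 in the wild-type control, then 4.43, 4.60 and 4.30, then 4.46, 4.03 and 4.43, and 4.0, 3.79 and 3.98 at 6 h. In the mutant it read 4.62, 5.47 and 5.47 in the control, then 4.55, 4.22 and 4.36, then 4.13, 4.16 and 4.12, and 4.28, 4.23 and 3.91. It lay close to background even in the controls, and its falls of 0.55, 0.69 and 1.08 in wild type and 0.81, 1.05 and 1.05 in the mutant (SE 0.176) have no exact size. At 1 h in wild type the call was lost on omitting control arrays 1 or 2 or 1 h arrays 1 or 3, at -0.55 to -0.48.

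TBL41 (AT3G14850) was lowest at 1 h in wild type. It read 6.41, 6.22 and 6.43 in the wild-type control, 4.90, 4.77 and 4.60 at 1 h, 5.19, 4.68 and 4.87 at 3 h, and 4.68, 5.42 and 5.09 at 6 h. Mutant values were 6.35, 6.43 and 6.36, then 5.30, 5.0 and 4.70, then 5.28, 4.92 and 5.76, and 4.92, 4.86 and 4.92. The controls were tight and every salt array lay below them, several near background. TBL41 fell by 1.60, 1.44 and 1.29 in wild type and by 1.38, 1.06 and 1.48 in the mutant (SE 0.192).

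TBL34 (AT2G38320), a xylan acetyltransferase gene, fell early and stayed low. Wild-type values were 7.47, 7.70 and 7.71 in the control, 6.30, 6.71 and 6.70 at 1 h, 6.65, 6.30 and 6.51 at 3 h, and 6.43, 6.48 and 6.13 at 6 h. Mutant values were 7.61, 7.79 and 7.57, then 6.72, 6.65 and 6.54, then 6.72, 6.46 and 6.45, and 6.41, 6.46 and 6.45. The 1 h and 6 h arrays overlapped in wild type, and the genotypes overlapped at each time. TBL34 fell by 1.05, 1.14 and 1.28 in wild type and by 1.02, 1.11 and 1.22 in the mutant (SE 0.121), with an adjusted p of 3.95e-08 at 6 h in wild type. TBL37 fell by 0.85, 0.94 and 0.62 in wild type and 0.86, 0.90 and 0.62 in the mutant, and TBL38 by 0.69, 0.55 and 0.70 and by 0.58, 0.45 and 0.64. Neither lost a call when any 1 array was left out.

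**Figure D4:**
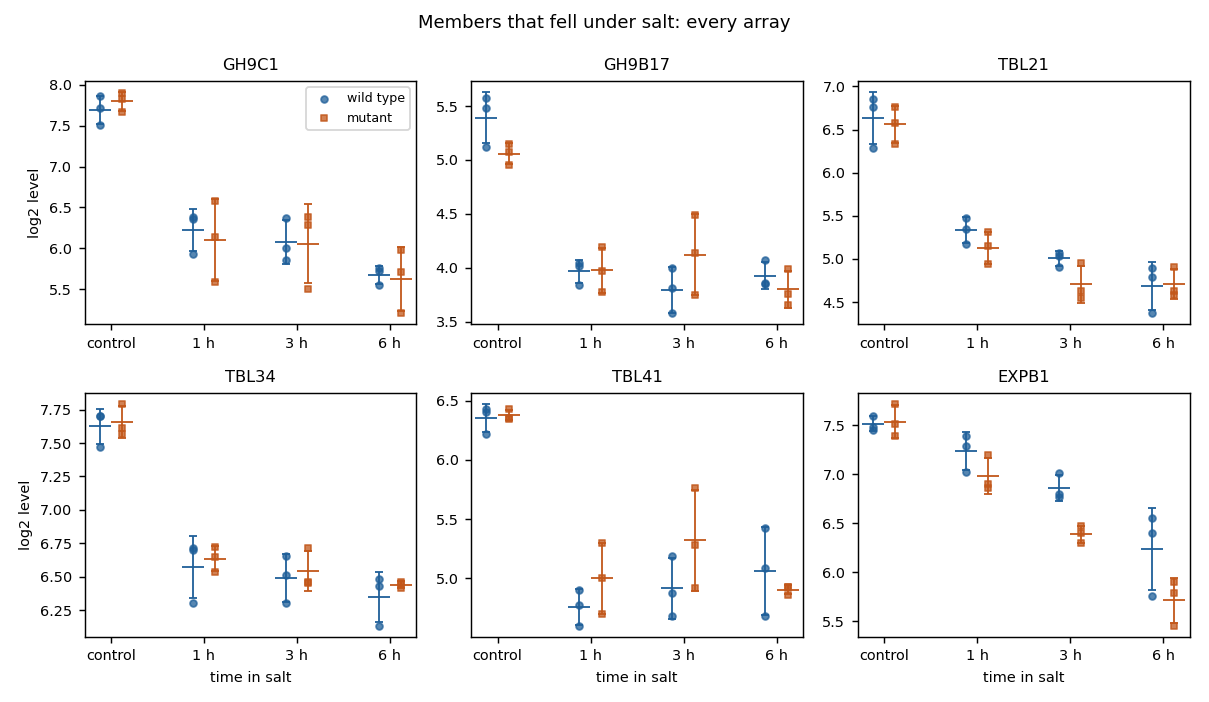
Log2 level of members that fell under salt in every array by time in 150 mM NaCl, with wild type as blue circles and mutant as orange squares. Horizontal marks are group means and bars are SD of 3 arrays. The salt arrays of GH9C1 and TBL34 lie below every control array from 1 h on, and for these genes both genotypes follow nearly the same course. GH9B17, TBL21, TBL41 and EXPB1 are also shown. For EXPB1 the mutant arrays at 3 h (6.40, 6.47 and 6.29) lay below those of wild type (7.02, 6.77 and 6.80), a difference that was not called.

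A later fall was seen in other TBL genes. TBL39 (AT2G42570) read 10.03, 10.06 and 10.05 in the wild-type control, 10.11, 10.10 and 9.82 at 1 h, 9.51, 9.49 and 9.77 at 3 h, and 9.21, 9.09 and 9.09 at 6 h. In the mutant it read 10.18, 10.14 and 9.97, then 9.97, 10.14 and 9.88, then 9.38, 9.57 and 9.47, and 9.09, 9.09 and 9.03. The 1 h arrays overlapped the controls, and the level then stepped down at 3 h and again at 6 h. TBL39 fell by 0.46 and 0.91 at 3 h and 6 h in wild type and by 0.62 and 1.03 in the mutant (SE 0.0939).

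TBL36 (AT3G54260), with the highest mean of the TBL probe sets, read 11.17, 10.79 and 10.84 in the wild-type control, 10.63, 10.84 and 10.88 at 1 h, 10.68, 10.67 and 10.45 at 3 h, and 9.76, 9.99 and 9.55 at 6 h. Those of the mutant read 10.92, 10.65 and 10.78, then 10.63, 11.08 and 10.65, then 9.61, 9.61 and 10.02, and 10.37, 10.07 and 10.35. The mutant was lowest at 3 h and wild type at 6 h, with no overlap between the 3 h groups of the genotypes or between the 6 h groups. TBL36 fell by 1.17 at 6 h in wild type (SE 0.148, adjusted p = 1.77e-06) and by 1.03 and 0.52 at 3 h and 6 h in the mutant. The xylan genes TBL28 and TBL35 and the mannan gene TBL25 also reached their lowest wild-type level at 6 h, with falls of 0.41, 0.73 and 0.66. In the mutant TBL28 fell by 0.55 at 3 h and TBL35 by 0.59 and 0.68 at 3 h and 6 h, while TBL25 fell by 0.33 at 1 h and 0.73 at 6 h. The calls of TBL28 at 6 h and TBL35 at 3 h in wild type and of TBL25 at 1 h in the mutant were lost on omitting 1 array: TBL28 without 6 h array 2 (-0.32), TBL35 (-0.23) without control arrays 2 or 3 or 3 h arrays 1 or 3 (-0.23 to -0.21), and TBL25 without control arrays 2 or 3 or 1 h array 2 (-0.32 to -0.25).

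TBL30, a xylan gene next to TBL28 on chromosome 2 in assembly TAIR10.1, was low early, and higher again at 6 h than at 3 h in the mutant. It fell by 0.44 at 1 h in wild type and by 0.78, 0.98 and 0.39 in the mutant (SE 0.155), with uncalled values of -0.40 and -0.11 at 3 h and 6 h in wild type. The wild-type call was lost on omitting control arrays 1 or 3 or 1 h arrays 1 or 3 (-0.47 to -0.35), and the mutant call at 6 h without any of the 3 control arrays or without 6 h arrays 2 or 3 (-0.42 to -0.24). TBL16 and the mannan gene TBL23 were lower at 6 h by 0.30 and 0.29 in wild type and by 0.26 and 0.25 in the mutant, and TBL23 also at 3 h in the mutant by 0.34. TBL16 lost its calls without control arrays 2 or 3 or 6 h arrays 1 or 2 in either genotype (-0.28 to -0.20 in wild type and -0.26 to -0.20 in the mutant). TBL23 lost its 6 h call in wild type without 6 h array 3 (-0.24), and in the mutant without control arrays 2 or 3 or 6 h arrays 2 or 3 (-0.26 to -0.21). TBL32 fell by 0.40 at 6 h in the mutant, on a probe set that may match more than 1 transcript, and that call was lost on omitting control arrays 1 or 2 or 6 h arrays 1 or 2 (-0.42 to -0.28). TBL45 fell by 0.38 at 3 h in the mutant. TBL15, TBL18, TBL20, TBL26, TBL42 and TBL43 had no call under salt.

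Changes between salt times were tested within each genotype, and the genotypes were not tested against each other for these steps. In wild type 2 members changed between 1 h and 3 h, against 8.37% of all probe sets, namely GH9B8, higher by 1.11, and TBL39, lower by 0.42, a call lost on omitting 3 h array 1 (-0.38). Between 3 h and 6 h 15 members changed, against 14.9% of all probe sets, 14 of them lower: EXPB3 by 1.14, GH9B13 by 1.01, GH9B8 by 0.91, EXPA4 by 0.84, TBL36 by 0.83, EXPA15 by 0.78, GH9C2 by 0.76, TBL25 by 0.70, EXPB1 by 0.63, TBL35 by 0.50, EXPB2 by 0.48 and TBL39 by 0.46, with GH9B7 and TBL28 smaller. EXPA21, near background, was the member called higher (0.32). The calls of EXPA21 (0.24 to 0.34), EXPB1 (-0.55 to -0.39), EXPB2 (-0.45 to -0.42), GH9B7 (-0.37 to -0.26) and TBL28 (-0.41 to -0.30) were lost in fits without 1 array. For EXPB1 and GH9B7 these were 3 h array 1 and 6 h array 3, for EXPB2 3 h arrays 1 or 2 and 6 h arrays 1 or 3, for TBL28 3 h arrays 1 or 3 and 6 h arrays 2 or 3, and for EXPA21 any but 6 h array 3.

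In the mutant 14 members changed between 1 h and 3 h, against 31.1% of all probe sets, 10 of them lower. The largest falls were those of TBL36 (-1.04), GH9B13 (-0.91), EXPB1 (-0.60), TBL28 (-0.55), TBL39 (-0.52), TBL35 (-0.51), EXPA4 (-0.48), EXPB3 (-0.44) and TBL45 (-0.43), and EXLA2 (0.94), GH9B8 (0.82) and EXPA9 (0.41) rose. The calls of EXPA4 and EXPB3 were lost on omitting 1 h arrays 1 or 2 or 3 h arrays 1 or 2 (-0.48 to -0.33 and -0.46 to -0.31), and that of EXLA2 without 1 h arrays 1 or 2 or any 3 h array (0.60 to 0.98). GH9C3 (-0.34) and TBL18 (0.23) completed the 14 and were also lost in such fits, at -0.38 to -0.28 and 0.19 to 0.22. Those were without 1 h arrays 1 or 3 or any 3 h array for GH9C3, and without 1 h arrays 1 or 2 or 3 h array 1 for TBL18.

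Between 3 h and 6 h 10 members of the mutant changed, against 11.8% of all probe sets. EXPA9 fell by 0.85, EXPB1 by 0.67, TBL25 by 0.62, GH9C2 by 0.58, EXPA15 by 0.50, EXPA16 by 0.44 and TBL39 by 0.41, while TBL30 rose by 0.59, TBL36 by 0.52 and TBL45 by 0.47. The calls of TBL30 and TBL36 were lost on omitting 3 h arrays 1 or 2 or 6 h arrays 1 or 3, at 0.46 to 0.57 and 0.45 to 0.47. EXPB1 lost its call without 6 h array 1 (-0.55), EXPA15 without 3 h arrays 1 or 3 or 6 h arrays 1 or 2 (-0.48 to -0.41), and EXPA16, near background, without array 1 or 3 of either time (-0.46 to -0.35).

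**Figure D5:**
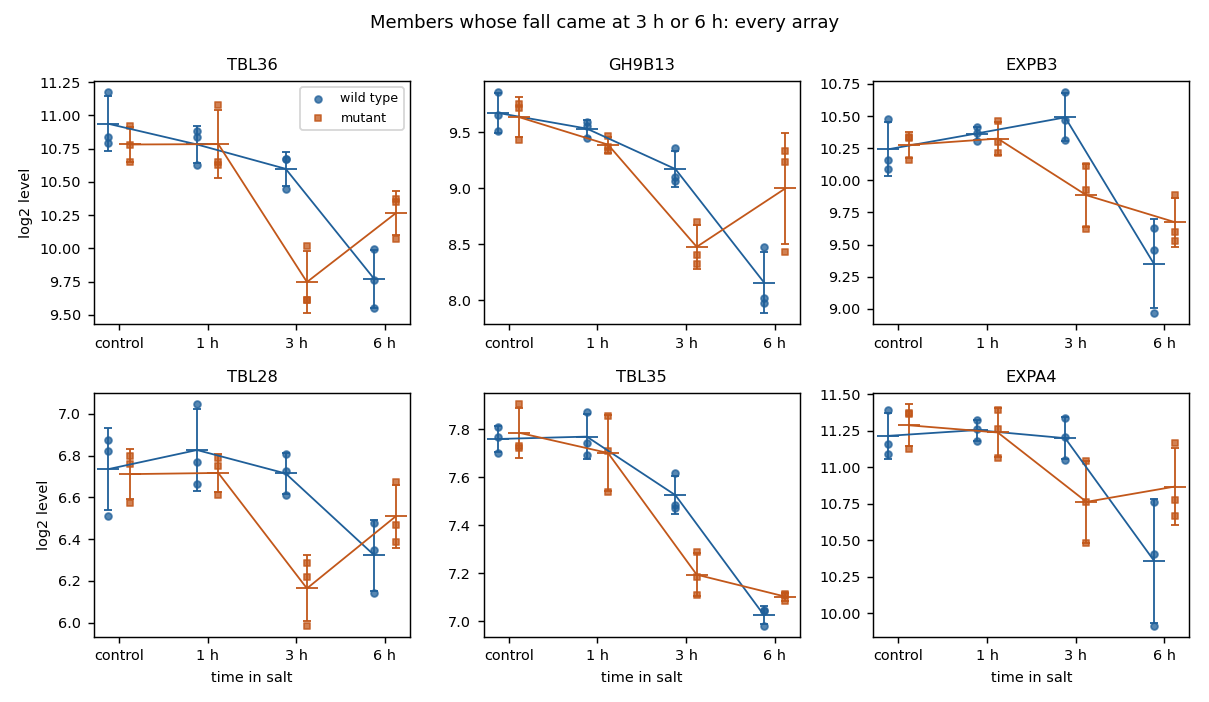
Log2 level of TBL36, GH9B13, EXPB3, TBL28, TBL35 and EXPA4 in every array by time in 150 mM NaCl, with wild type as blue circles and mutant as orange squares, means as horizontal marks and SD of 3 arrays as bars. In each plot the mutant mean lies below the wild-type mean at 3 h, and in each the wild-type mean at 6 h is the lower. All but EXPA4 were called lower in the mutant at 3 h, so the order at 3 h follows from the choice of genes. Of these genes only GH9B13 was called between genotypes at 6 h. EXPB2, also called lower at 3 h, is not shown. Its 6 h arrays read lower in the mutant (6.67, 6.44 and 6.39) than in wild type (6.73, 7.05 and 6.78).

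Mutant and wild type were compared directly in each condition. In the controls no member was called by limma, against 0.211% of all probe sets, with 2 members at an unadjusted p under 0.05. After 1 h none was called, against 0.022% of all probe sets, again with 2 at an unadjusted p under 0.05. After 3 h 7 members were called, against 10.2% of all probe sets, 6 of them lower in the mutant. TBL36 was lower by 0.85 (SE 0.148, adjusted p = 0.00174), GH9B13 by 0.69 (adjusted p = 0.0205), EXPB3 by 0.61 (adjusted p = 0.0182), EXPB2 by 0.58 (adjusted p = 0.0199), TBL28 by 0.55 (adjusted p = 0.0078) and TBL35 by 0.33 (adjusted p = 0.0136), and EXPA9 was higher by 0.37 (adjusted p = 0.0464). The 3 arrays of each genotype did not overlap in any of the 7. The calls came from these same arrays, so this adds no support. How many of all probe sets were apart in this way was not counted. Other signals were also apart at 3 h: the 25S ribosomal RNA probe set read 13.23 to 13.46 in wild type and 13.03 to 13.12 in the mutant, and the root marker PYK10 read 12.30 to 12.59 and 11.95 to 12.06. Their part in the 7 differences was not tested.

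The calls of TBL36 and TBL28 held whichever array was left out. EXPA9 was lost on omitting any 1 of the 6 arrays (0.34 to 0.45). EXPB2 was lost on omitting wild-type 3 h arrays 1 or 2 or mutant 3 h array 2 (-0.55 to -0.50), and EXPB3 without wild-type 3 h arrays 1 or 3 or mutant 3 h arrays 1 or 2 (-0.62 to -0.47). GH9B13 was lost on omitting wild-type 3 h array 1 or mutant 3 h arrays 1 or 2 (-0.66 to -0.60), and TBL35 without wild-type 3 h array 2 or mutant 3 h array 1 (-0.29). Without wild-type 3 h array 1 or mutant 3 h array 1, 3 of the 7 calls were left in number, and without wild-type 3 h array 2, 4.

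After 6 h 1 member was called, against 0.589% of all probe sets: GH9B13 was higher in the mutant by 0.84 (SE 0.182, adjusted p = 0.0412), with mutant array 2 (8.43) inside the wild-type range. That call was lost on omitting wild-type 6 h arrays 1 or 3 or mutant 6 h arrays 1 or 3, at 0.67 to 0.77. Over the mean of the 4 conditions 2 members were called, against 3.57% of all probe sets, both beta-expansins and both lower in the mutant. EXPB2 was lower by 0.54 (SE 0.0761, adjusted p = 0.000857), whichever array was left out. EXPB1 was lower by 0.31 (adjusted p = 0.0427) and was not called in 17 of the 24 fits without 1 array, at -0.32 to -0.27.

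Whether the response to salt itself differed was tested as the mutant's difference minus that of wild type. At 1 h no member was called, against 0% of all probe sets, with 1 at an unadjusted p under 0.05. At 3 h none was called by limma, against 1.46% of all probe sets, with 9 at an unadjusted p under 0.05, and 1 was called when arrays were weighted. The values at 3 h were -0.69 for TBL36 (adjusted p = 0.101), -0.36 for TBL35 (0.122), -0.53 for TBL28 (0.131), -0.64 for EXPB3 (0.15) and -0.66 for GH9B13 (0.209). The other 2 members called between genotypes at 3 h had response differences of 0.11 (EXPB2, adjusted p = 0.864) and 0.21 (EXPA9, adjusted p = 0.596). EXPB2 already lay 0.69 lower in the mutant controls than in the wild-type controls (adjusted p = 0.0667, not called). GH9B17, near background under salt, differed the other way at 0.66 (adjusted p = 0.155), and TBL30 (-0.58), EXPB1 (-0.50) and GH9C3 (-0.38) were the rest of the 9. At 6 h none was called, against 0.0791% of all probe sets, with 7 at an unadjusted p under 0.05, among them 0.88 for GH9B13 (adjusted p = 0.317) and 0.65 for TBL36 (0.417). The other 5 were negative: EXPB1 (-0.55), EXPA9 (-0.43), EXPA20 (-0.40), EXPB5 (-0.39) and EXPA21 (-0.34). No member thus had a response to salt that was called different between the genotypes. A missing call does not show equal responses: in simulated data 32.8% of log2 differences of 0.5 were called at 3 h.

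Other wall genes were described from lists by family. Xyloglucan endotransglucosylase/hydrolases (XTH) cut and rejoin xyloglucan, and of 9 measured 1, 1 and 2 were called higher and 3, 4 and 6 lower in wild type at 1 h, 3 h and 6 h. In the mutant 1, 1 and 2 were called higher and 3, 4 and 5 lower. Over all probe sets 15.4%, 23.5% and 31.1% were called lower in wild type at the 3 times, and 9.33%, 12.4% and 16.4% higher. In the mutant 13.5%, 28.1% and 29.8% of all probe sets were called lower and 10.6%, 17.4% and 18.1% higher. XTH26 fell by 2.14, 2.5 and 1.97 in wild type, and XTH16 by 1.40 and 2.12 at 3 h and 6 h. XTH20 rose by 1.04, 1.55 and 1.32 in wild type, while XTH33 fell by 1.21, 1.69 and 1.79 and XTH21 by 1.14, 1.27 and 1.08. Of 7 cellulose synthase-like genes, CSLC04, which makes the xyloglucan backbone, was the member called higher at each time, by 1.34, 1.47 and 1.60 in wild type and by 1.35, 2.17 and 2.12 in the mutant. The cellulose synthase-like genes called lower numbered 0, 1 and 2 in wild type and 0, 2 and 2 in the mutant. These were 0%, 14.3% and 28.6% of the 7 in wild type and 0%, 28.6% and 28.6% in the mutant. They lay below or close to the shares over all probe sets given above. None of the 6 primary and 3 secondary wall cellulose synthase genes listed was named on the array.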

How the data were processed

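The deposited table of 24 arrays holds log2 values, a scale inferred from their range of 2.46 to 14.04. The submitters' processing notes name RMA, affy and limma as tools and TAIR9 as a build, and their versions, order and settings are not given in the sources used. RMA corrects background, equalises arrays and summarises each probe set.

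Of 22810 probe sets, 64 Affymetrix controls were left out. The platform's gene table gave 13513 probe sets 1 symbol, 13436 of them updated through the RefSeq table of assembly TAIR10.1. Probe sets with several symbols named no gene. If a gene had several probe sets, the one with the highest mean was used.

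The 8 group means were fitted in limma 3.58.1 (R 4.3.3) on all 24 arrays, with 16 residual and 3.83 prior degrees of freedom and moderated two-sided tests. P-values were adjusted by Benjamini-Hochberg over 22746 probe sets in each of 18 comparisons, and a call needed an adjusted p under 0.05. Folds are powers of 2 of log2 differences, larger over smaller. The fit was also run on simulated data, with 67 probe sets changed by a log2 of 0.5 and 67 by 1 in wild type at 3 h. For salt against control 59.7% and 95.5% of these were called, and for the difference of responses 32.8% and 85.1%. The real data hold many more changes than this, so these shares need not carry over. The number of arrays limits the precision.

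Alternatives were a filter on dim probe sets, quantile normalization, median centring, a replicate block, array weights, a trended robust prior, only the groups compared, the lowest-mean probe set and leaving out each array. Same-numbered arrays deviated together in wild type 1 h with mutant 1 h (correlations of 0.177 to 0.719) and in wild type control with wild type 6 h (0.148 to 0.405), as seen in the data and not stated in the labels, and those 2 comparisons were also fitted with the number as a block. Wild type control with wild type 1 h (0.093 to 0.579) was not fitted in that way. Members and lists were chosen with earlier results of these data known. In a comparison up to 12 called members were named from the largest difference down, with smaller ones beside their family. Every array was printed for members called with a log2 difference of at least 1 and for the highest-mean member of each family.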

Additional observations from a re-analysis of the deposited data

How the results depend on the processing

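No count turned in direction. Under array weights the count of members called was 29 for mutant 1 h salt against control (17 otherwise), 5 for wild type 3 h against 1 h, 1 for mutant against wild type in the control, 4 over the mean of 4 conditions and 1 for the difference of responses at 3 h. With only the groups compared it was 1 for wild type 3 h against 1 h and 0 for mutant against wild type at 6 h. Over the mean of 4 conditions it was 1 after quantile normalization, 1 after median centring and 1 without the 2 control arrays high for EXLA3, an alternative added after seeing the data. The cause of these changes was not tested. Leaving out 1 array gave 1 to 3 calls for wild type 3 h against 1 h (1 without 3 h array 1), 9 to 14 for mutant 3 h against 1 h (9 without 1 h array 1) and 5 to 11 for mutant 6 h against 3 h (5 without 6 h array 1). It gave 0 to 1 for mutant against wild type in the control (1 without mutant control array 1), 3 to 6 at 3 h, 0 to 1 at 6 h (0 without wild-type array 1 or mutant array 1 or 3) and 1 to 2 over the mean. The 6 h difference of responses had 0 to 1 (1 without mutant array 2). Of 138 calls under salt, 103 held without any 1 array.

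With the replicate block, members called under salt numbered 19, 23 and 27 in wild type and 17, 27 and 28 in the mutant. Over all groups same-numbered arrays did not deviate together (median correlation -0.0028, over 0.1 in 27 of 84 pairs). In 2 of the 28 pairs of groups every same-number correlation was over 0.1, and the replicate block with only those groups, added after seeing this, gave 26 calls for wild type 6 h against control and 0 for mutant against wild type at 1 h. Wild type control with wild type 1 h fell just short of this cut, at 0.093 to 0.579, and had no such fit. The lowest-mean probe set was the same as the highest-mean one, since each member had 1 probe set, so that alternative could change no result. The dim filter kept 35 of 53 members. Differences that end near background, and control levels of EXLA1 and EXLA3 with 3 arrays each, limit the sizes given.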
